A study of Mus musculus with 4 samples.

Results

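Of 68680 regions of open chromatin found in all 4 replicates of mouse T-helper 17 (Th17) cells, 782 (1.14%) had their summit in a protein-coding stretch of an exon and over 1 kb from every annotated transcription start site (TSS). They were chosen by position alone. Rows of the 4 peak lists that overlapped by at least 1 bp on chromosomes 1 to 19 and X were merged, a row from every replicate was required, and the summit of the row with the highest signal had to lie in coding sequence (CDS) of a protein-coding gene of GENCODE M21. The 782 regions lay in 751 of 21728 protein-coding genes, and 31 genes held 2 of them. Th17 cells are helper T cells that make interleukin 17 and guard mucosal surfaces. The study applied ATAC-seq, which cuts and tags accessible DNA with a transposase, to primary Th17 cells of strain C57BL/6NJ, with 4 biological replicates that share 1 donor identifier and no other group. Besides a library tag, names of peaks hold the words 72hrs and ASTARR.insert, which no label explains. That these are ATAC-seq libraries is taken from the assay label, which gives no time point. No treatment or genotype is given, sex, age and stage are not given, and nothing says whether the replicates came from separate animals, so their spread may be technical.

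A coding exon has to serve the genetic code, because each base is read as part of a codon. The same bases can also be bound by transcription factors, and enhancers that lie inside coding exons of a gene are known. Most open chromatin of a T cell lies instead at promoters, in introns and between genes, where AP-1 (dimers of the JUN, FOS and BATF families, joined in Th17 cells by IRF4), RUNX and ETS factors bind. CTCF is a zinc finger protein that binds a long motif and holds the borders of chromatin loops.

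The sequences below show how a regulatory pattern sits inside a reading frame. They are the strongest coding-exon regions, by mean rank of signal, with an AP-1 pattern (TGANTCA, where N is any base) within 50 bp of the summit. Each is 61 bases of the GRCm38.p6 (mm10) assembly, written 5′ to 3′ on the gene's coding strand, with the match in capitals. The Cenpf sequence lies at chr1:189657623-189657683 on the minus strand in exon 12, the Spag9 sequence at chr11:94099003-94099063 on the plus strand in exon 21, and the Reln sequence at chr5:21920420-21920480 on the minus strand in exon 51. The Baz2b sequence lies at chr2:59969293-59969353 on the minus strand in exon 5, and the Rbm44 sequence at chr1:91153573-91153633 on the plus strand in exon 3.
Cenpf: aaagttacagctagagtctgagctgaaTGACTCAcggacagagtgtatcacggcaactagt
Spag9: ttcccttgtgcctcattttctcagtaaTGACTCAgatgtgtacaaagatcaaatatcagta
Reln: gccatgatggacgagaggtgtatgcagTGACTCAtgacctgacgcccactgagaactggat
Baz2b: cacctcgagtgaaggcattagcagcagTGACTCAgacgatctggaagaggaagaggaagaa
Rbm44: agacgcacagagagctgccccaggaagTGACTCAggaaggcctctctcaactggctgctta
In these 5 matches the coding strand read TGACTCA, and all lay wholly in the exon. The first base of the match was the third base of a codon in Cenpf, Spag9, Baz2b and Rbm44, and the second base of a codon in Reln.

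The strongest regions with a CTCF pattern within 50 bp of the summit are shown in the same way, because the CTCF pattern was the one most over-represented in these exons. The pattern runs over 12 positions, and either strand was allowed. The Synpo2l sequence lies at chr14:20661138-20661198 on the minus strand in exon 4, and the Zscan10 sequence at chr17:23610689-23610749 on the plus strand in exon 6. The Soga1 sequence lies at chr2:157030972-157031032 on the minus strand in exon 8, and the Ppp1r13l sequence at chr7:19370227-19370287 on the plus strand in exon 4. At Unc45b (chr11:82915137-82915197, plus strand, at exon 5) the summit was coding, but the match lay partly or wholly outside the coding part of the exon.
Synpo2l: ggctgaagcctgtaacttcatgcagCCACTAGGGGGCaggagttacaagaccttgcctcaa
Zscan10: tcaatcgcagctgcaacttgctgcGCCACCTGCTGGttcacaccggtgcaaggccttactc
Soga1: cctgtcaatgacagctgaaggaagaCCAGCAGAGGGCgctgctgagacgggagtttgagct
Unc45b: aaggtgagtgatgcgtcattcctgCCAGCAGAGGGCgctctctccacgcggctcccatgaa
Ppp1r13l: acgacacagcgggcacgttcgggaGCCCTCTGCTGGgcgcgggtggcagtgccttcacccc
The CTCF match centre lay 30 to 43 bp from the summit in these 5 regions, and not at the summit itself.

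In the series as a whole, each replicate had 84594.5 ± 695 rows (SD, n = 4) on the chromosomes used. Promoters of 5 of 5 T-cell genes and 5 of 5 Th17 genes checked were open in all 4 replicates, where open means that each replicate had a row within 1 kb of a TSS of the gene. Rows with a coding-exon summit were not left out of this call. Among genes of other cell types, Cd8a, Ncr1, Ms4a1, Cd79a, Csf1r, Itgam, Lyz2 and Gata1 had no row at the promoter in any replicate, Klrb1c had one in 3, and Pax5, Spi1 and Klf1 had one in all 4. With 4 replicates the smallest p that an exact two-sided sign-flip permutation test can give is 0.13, so no comparison can pass 0.05 and differences are read against the SD between replicates. A single replicate had 1080.5 ± 22.3 rows with a coding-exon summit (SD, n = 4), with 1066, 1077, 1113 and 1066 in replicates 1 to 4. Merged regions found in at least 1 replicate were classed by their strongest summit. Of the 1360 with that summit in a coding exon, 57.5% were found in all 4 replicates, against 63.5% of intronic and 83.0% of promoter regions. A further 20.9% of the 1360 were found in 1 replicate only.

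The first comparison asked whether coding sequence was open more or less often than introns. Introns were pooled over all annotated genes, non-coding ones included. Coding exons held 31.3 summits per Mb of the 24.99 Mb of CDS over 1 kb from a TSS, and introns held 28.4 per Mb. Untranslated (UTR) exons held 34.7, intergenic sequence 14.2 and sequence within 1 kb of a TSS 112 per Mb. The ratio of coding to intronic density was thus 1.101 in the shared regions, and 1.19 ± 0.020 in the rows of single replicates (SD, n = 4). This order did not hold at matched distance to a TSS. At 1 to 2 kb from a TSS, coding exons held 39.2 and introns 39.3 summits per Mb. At 2 to 5 kb the densities were 36.3 and 36.9 per Mb, and at 5 to 10 kb they were 33.4 and 36.6. At 10 to 20 kb they were 26.7 in coding exons and 31.4 in introns, and at 20 to 50 kb they were 20.2 and 22.9. Over 50 kb away, 7 coding-exon regions gave 7.07 per Mb against 10.4 in introns. The ratio was therefore between 0.682 and 0.998 within every distance bin, below the pooled 1.101. Under other rules for the summit the pooled ratio was below 1. It was 0.802 when the summit of every replicate had to lie in the class, and 0.931 when the 4 summits had to lie within 100 bp. Both rules dropped regions and left the Mb of each class unchanged. The first kept 71.6% of coding-exon and 98.3% of intronic regions. These 2 ratios therefore cannot show whether coding sequence was open less often than introns.

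By place in the coding sequence, last coding exons had the highest density over all genes, with no comparison made gene by gene. Last coding exons held 247 regions at 51.1 per Mb of eligible CDS, internal ones 448 at 25.1, first ones 37 at 36.4, and single coding exons 50 at 38.8. Last coding exons were also above internal ones of like coding length up to 1 kb. With 200 bp to under 1 kb of coding sequence, last coding exons held 69.6 regions per Mb and internal ones 29.5. For last coding exons with under 200 bp of coding sequence the density was 37.2, against 21.8 for internal ones. From 1000 bp of coding sequence upwards they were slightly below, at 38.2 per Mb against 40.1 for internal ones. The length of the whole exon, with any UTR part, was not matched. Over all exons, the density was 24.2, 24.0 and 23.1 per Mb in the 3 bins of coding length under 200 bp, 37.8 from 200 bp to under 500 bp, 50.7 from there to under 1 kb, and 38.8 and 35.3 above that. The median coding part of an exon with a region was 240 bp, with a range of 20 to 11544 bp, and 20.1% of the regions were in exons with at least 1 kb of coding sequence. In all, 616 regions (78.8%) lay in a gene whose own promoter was open in all 4 replicates. These genes held 34.4 regions per Mb of eligible CDS and the other genes 23.4. Rows of the coding-exon regions themselves were not left out when promoters were called open. Some of the 156 regions with a summit 1 to 2 kb from a TSS may thus have marked their own promoter. The share and the densities are therefore not independent of the regions counted.

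**Figure D1:**
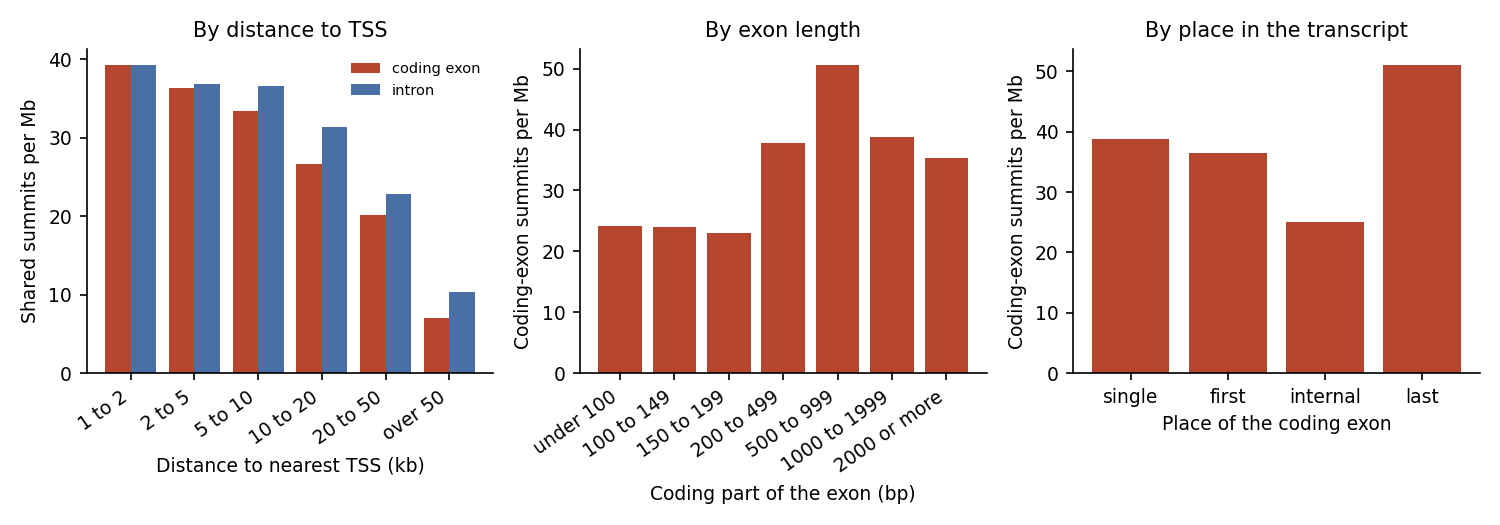
Shared summits per Mb of eligible sequence (vertical axes), pooled over the 4 replicates and so without error bars, by distance to the nearest TSS for coding exons and introns (left), by coding length of the exon in bp (middle) and by place of the coding exon (right). Coding exons lie at or below introns at every distance, from 39.2 against 39.3 at 1 to 2 kb, and last coding exons reach 51.1 per Mb against 25.1 for internal ones.

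Most of the regions were wider than the coding sequence at their summit. The median merged width was 891 bp (range 266 to 4431), the median share of a region that was CDS was 34.7%, and 56 regions were CDS throughout. The median distance from the summit to the nearest end of the coding part was 60.5 bp, and 92 regions (11.8%) had the summit within 10 bp of it. Summits of the 4 replicates spanned a median of 55 bp, against 42 bp for intronic regions. All 4 summits were in a coding exon in 560 regions (71.6%), whereas 98.3% of intronic regions kept all 4 summits in introns. At 686 regions (87.7%) the summit was coding in every protein-coding transcript that spans it. A further limit of the annotation is that 43 regions (5.50%) lay within 1 kb of a TSS known to RefSeq and not to GENCODE. Their median signal percentile was 37.6, and that of the other regions 36.9.

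Coding-exon regions were weaker and slightly wider than intronic ones. Their median signal, the enrichment value given by the authors' peak caller, was 6.03, 6.07, 5.79 and 5.87 in replicates 1 to 4, and that of intronic regions was 6.77, 6.98, 6.43 and 6.64. In such bulk lists a region open in few cells and one weakly open in many cannot be told apart. Signal is not normalised between replicates, so it was ranked within each replicate among the shared regions, with 100 the strongest. The median percentile was 37.0 ± 0.605 in coding exons, 44.4 ± 0.350 in introns, 33.7 ± 0.409 in UTR exons, 47.7 ± 0.232 between genes and 64.9 ± 0.656 at promoters (SD, n = 4). Coding exons were below introns by 7.38 ± 0.770 percentiles, with differences of -7.25, -8.37, -6.49 and -7.43 in replicates 1 to 4 (exact sign-flip permutation p = 0.13). The tenth of shared regions with the lowest signal held 16.4% ± 0.760 of the coding-exon regions, and the tenth with the highest held 3.80% ± 0.382. The median row was 722.4 ± 27.9 bp wide in coding exons and 653.5 ± 21.5 bp in introns, a difference of 68.9 ± 7.45 bp that was positive in 4 of 4 replicates. The median -log10 q was 28.7 ± 1.93 in coding exons and 37.8 ± 0.831 in introns.

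The size of the difference in rank rested on which summits were admitted. It was -1.57 ± 1.15 percentiles when every replicate's summit had to lie in the class, negative in 3 of 4 replicates (exact sign-flip permutation p = 0.25), and -2.93 ± 1.79 when the 4 summits had to lie within 100 bp (SD, n = 4). The first of these rules kept 71.6% of coding-exon and 98.3% of intronic regions, so it did not treat the classes alike. Whether this unequal loss made the difference smaller was not tested. By distance to a TSS the difference in rank ranged from -0.99 ± 1.41 at 1 to 2 kb, where it was smaller than its SD, to -10.8 ± 3.06 at 20 to 50 kb. The difference in width fell from 113.9 ± 23.6 bp at 1 to 2 kb to 41.6 ± 16.7 bp at 10 to 20 kb. It was 26.0 ± 39.95 bp at 20 to 50 kb and -42.6 ± 69.0 bp in the 7 regions over 50 kb away, both within the SD. The gap in rank was also present inside genes. Of the 782 regions, 430 lay in a gene that also held an intronic shared region, and their percentile minus the median of those intronic regions had a median of -6.79 ± 0.773 over the 4 replicates. In 208 of the 430 (48.4%) the coding-exon region was lower in all 4 replicates, and in 142 (33.0%) it was higher in all 4. In 107 (24.9%) it stood above every intronic region of its gene. The median number of such intronic regions was only 2.5, so the highest place was taken among few regions.

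**Figure D2:**
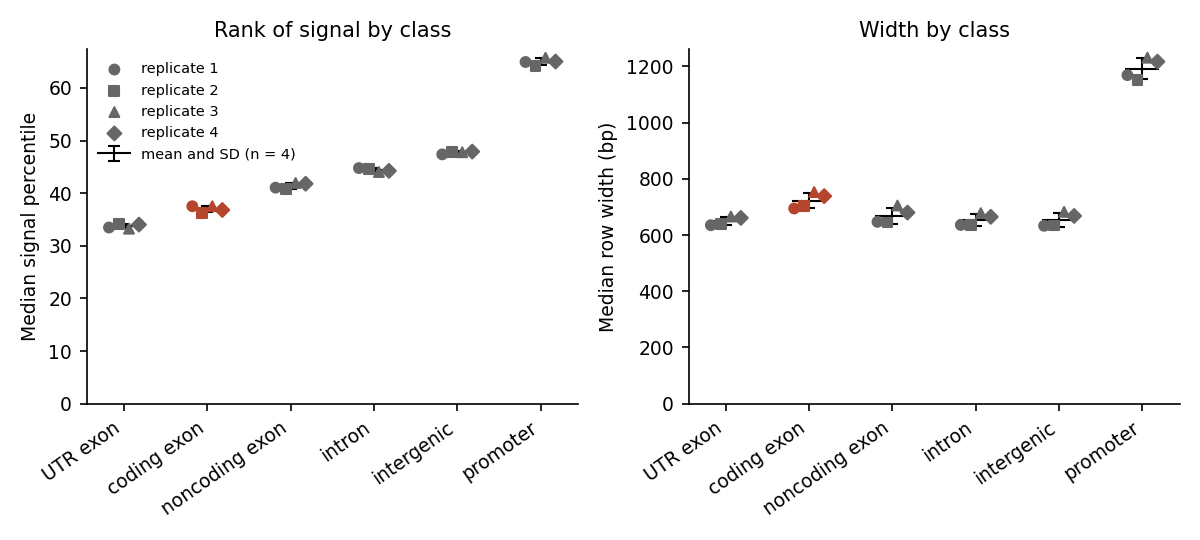
Median signal percentile within replicate (left) and median row width in bp (right) for each class of shared region; points are the 4 replicates, and black bars give the mean and SD (n = 4). Coding exons, in red, sit at 37.0 percentiles, between UTR exons at 33.7 and introns at 44.4, and their rows have a median width of 722.4 bp against 653.5 bp in introns.

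The strongest coding-exon region lay at chr12:51937856-51938488 (mm10) in exon 13 of Heatr5a, with a signal of 19.3, 20.7, 18.2 and 18.9 in replicates 1 to 4. Its percentile of 99.8 ± 0.071 (SD, n = 4) put it among the strongest of all shared regions. Muc4, which encodes a membrane-bound mucin, followed with 19.2, 20.3, 17.5 and 18.4 at chr16:32750500-32751300, in a coding exon of 3197 bp, although its own promoter was not open in all 4 replicates. Cenpf, a protein of the kinetochore, had 17.7, 20.2, 18.8 and 19.1 at chr1:189657270-189658048, and this is the region of the Cenpf sequence printed above. Gen1, a nuclease that resolves Holliday junctions, had 18.1, 18.2, 16.7 and 17.0 in its last coding exon. In these 4 regions every replicate lay between 98.7 and 99.9 percentiles.

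Tgm3, an epidermal transglutaminase, had signals of 18.7, 17.8, 16.5 and 17.0, and its promoter was not open in all 4 replicates. Abi2, which binds Abl kinases and belongs to the WAVE actin regulatory complex, had 16.1, 19.1, 17.8 and 15.5. Cd180, a Toll-like surface receptor best known from B cells, had 16.5, 16.7, 16.1 and 16.8 in its last coding exon, again without an open promoter in all 4. Markers of other cell types give the setting for this gene: the B-cell genes Ms4a1 and Cd79a had no row at the promoter in any replicate, and Pax5 had a row in all 4. Their part in this region was not tested. Spag9, a scaffold protein of JNK signalling, had 15.5, 17.7, 15.8 and 16.1. Stk39, a kinase that acts on cation cotransporters, had 16.2, 16.3, 16.3 and 15.7. Prdm2, a histone methyltransferase, had 16.9, 16.6, 15.2 and 15.1, and its region lay within 1 kb of a RefSeq TSS. The AP-1 pattern was found at 2 of these 10 strongest regions, Cenpf and Spag9, and the CTCF pattern at none.

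At the other end, Phf12, a subunit of a SIN3 corepressor complex, had signals of 1.56, 1.41, 1.51 and 1.70 in exon 2, the weakest of all. Man1a, a mannosidase of the Golgi, had 2.04, 1.72, 1.79 and 1.92. Cyren, a regulator of DNA end joining, had 1.78, 1.89, 1.98 and 1.85. Nup210l had 1.64, 1.81, 1.99 and 1.98, and Mycn, a transcription factor of the MYC family, had 1.77, 2.13, 1.77 and 1.92. These 5 regions lay in genes with an open promoter, and their mean percentiles were between 0.035 and 0.314.

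**Figure D3:**
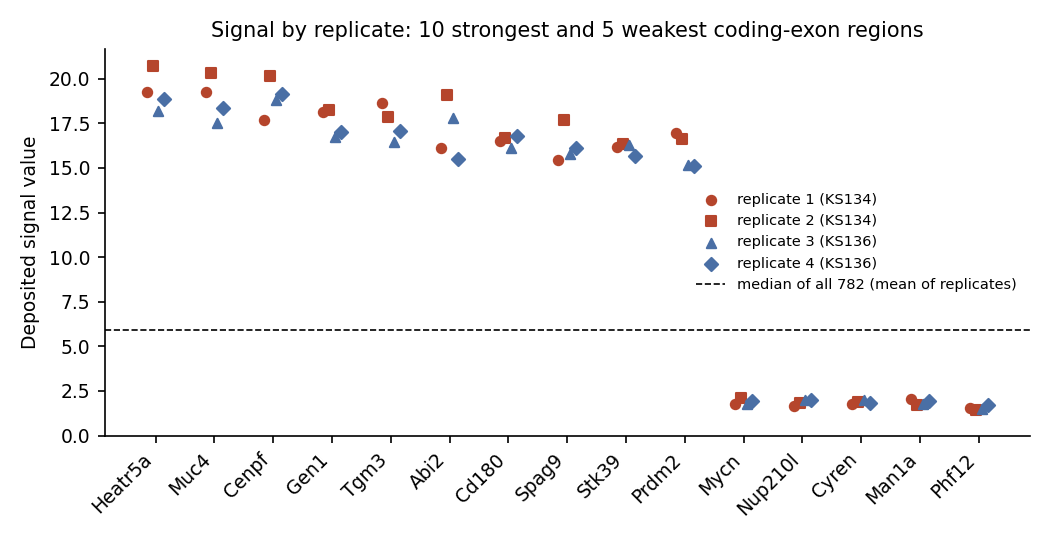
Deposited signal (vertical axis) of the 10 strongest and 5 weakest coding-exon regions, 1 symbol per replicate, coloured by the library tag in the peak names; the dashed line is the median signal of all 782 regions, 5.94. The strongest regions lie between 15.1 and 20.7 in every replicate and the weakest between 1.41 and 2.13.

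Most regions repeated closely: the median SD of a region's percentile over the 4 replicates was 4.46, and 4.51 for intronic regions. The most variable region lay in exon 15 of Cpne3, which encodes a copine, with signals of 9.07, 10.6, 4.08 and 5.52 and a percentile SD of 24.99. Hspg2, the gene of the basement membrane proteoglycan perlecan, had 6.74, 10.2, 4.97 and 3.96 in exon 7, and St5 had 7.63, 8.64, 3.95 and 4.53. In these 3 regions replicates 1 and 2 lay above replicates 3 and 4. The peak names carry a library tag that separates the same replicates, KS134 in replicates 1 and 2 and KS136 in 3 and 4; what it stands for is not given. Over all 68680 shared regions, 21.8% were higher in both KS134 replicates than in both KS136 ones, and 20.7% the reverse. Among the 782 coding-exon regions these counts were 140 (17.9%) and 173 (22.1%). The first share lay below the background and the second slightly above it. The gap to introns was present within each tag, at -7.25 and -8.37 percentiles in the KS134 replicates and -6.49 and -7.43 in the KS136 replicates.

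The limit of 1 kb to a TSS left regions close on either side. Just inside were regions of S1pr4, a sphingosine 1-phosphate receptor, at 1005 bp with a mean signal of 2.85 ± 0.139, Mms22l, a replication repair factor, at 1007 bp with 6.85 ± 0.484, and Drd4, a dopamine receptor, at 1007 bp with 3.76 ± 0.418 (SD, n = 4). Just outside were regions of Hic1 at 998 bp with 1.55 ± 0.110, Slc18a3 at 998 bp with 3.23 ± 0.373 and Crhbp at 997 bp with 3.67 ± 0.388.

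The AP-1 pattern was found at more coding-exon summits than any other of the 21 patterns tested, and still less often than in introns. A match within 50 bp of the strongest summit was found at 103 of 782 coding-exon regions (13.2%), 27.5% of 28762 intronic regions and 21.8% of all shared regions. In windows of the same length centred at regular steps through the eligible CDS, the share was 2.27% of 247466, so coding-exon regions held the pattern 5.81 times as often as coding sequence at large. By replicate, 102, 96, 95 and 105 of the 782 summits had a match. The share at summits over that in windows 200 bp to each side was 4.00, 4.57, 4.75 and 5.00 in replicates 1 to 4, or 4.58 ± 0.425 (SD, n = 4), against 7.58 ± 0.070 in introns. The reversed, not complemented, pattern gave 1.11 ± 0.187 at the same summits. The ratio in coding exons was higher, at 8.59 ± 2.18, where the flanking windows had to be CDS throughout, but these held 6 to 10 matches in a replicate.

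Regions with an AP-1 match were the stronger ones. The median percentile of the 103 regions was 54.9 ± 1.23 and that of the other 679 was 34.9 ± 0.503, a difference of 20.03 ± 1.48 with the same sign in 4 of 4 replicates (exact sign-flip permutation p = 0.13). Intronic regions with a match had 53.7 ± 1.08. Coding-exon regions that carry the pattern lay above these by 1.22 ± 1.34, a mean difference less than its SD. It was positive in 4 of 4 replicates, at 0.41, 0.33, 0.95 and 3.18 in replicates 1 to 4 (exact sign-flip permutation p = 0.13). Regions with neither an AP-1 nor a CTCF match had 34.6 ± 0.452 in coding exons and 41.0 ± 0.270 in introns, a difference of -6.35 ± 0.356. The gap between the classes was thus present in regions without either match, and near the -7.38 of all regions.

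AP-1 matches were also placed in the reading frame. TGA is a stop codon, so a TGANTCA match cannot start on the first base of a codon within an open reading frame, on either strand, because the pattern reads the same on both. Wholly within the exon and within 50 bp of the summit there were 88 matches in 84 regions. None started on the first base of a codon, 31 on the second and 57 (64.8%) on the third. All coding exons of 1 principal transcript per gene, with CDS within 1 kb of a TSS included, held 7567 matches. Among these the counts were 0, 3856 and 3711 (49.0%). The central base was C or G in 72 of the 88 matches (81.8%), the form preferred by AP-1, and in 51.5% of the 7567 matches. Among matches with a central C or G, the third codon base was the start in 66.7% of those near summits and 53.5% of all. Neighbouring matches can share a region, and no test was made of these counts.

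The CTCF pattern was found within 50 bp of the strongest summit at 31 coding-exon regions (3.96%). It was found at 2.99% of intronic regions, 3.16% of all shared regions and 0.0752% of coding windows, a ratio of 52.7 between coding-exon regions and coding windows. By replicate, 32, 29, 33 and 33 summits had a match. Over the flanking windows the ratio was 14.1 ± 3.63, and 26.0 ± 1.78 in introns, with few matches in the flanks of coding exons. The matches lay beside the summit. Of 39 matches within 100 bp in coding-exon regions, 25 (64.1%) were centred 20 to 40 bp away and 2 within 20 bp. In introns, 69.5% of 1054 were at 20 to 40 bp and 0.854% within 20 bp. With only 25 bp on each side of the summit, a window too short for most of that distance, the ratio was 0.65 ± 0.790, from 0 to 4 matches at summits in a replicate. AP-1 matches were spread over the summit instead, with 24.8% of 161 within 20 bp and 33.5% at 20 to 40 bp. Regions with a CTCF match had a median percentile of 42.5 ± 4.02, and -0.22 ± 2.35 relative to intronic regions with a match.

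**Figure D4:**
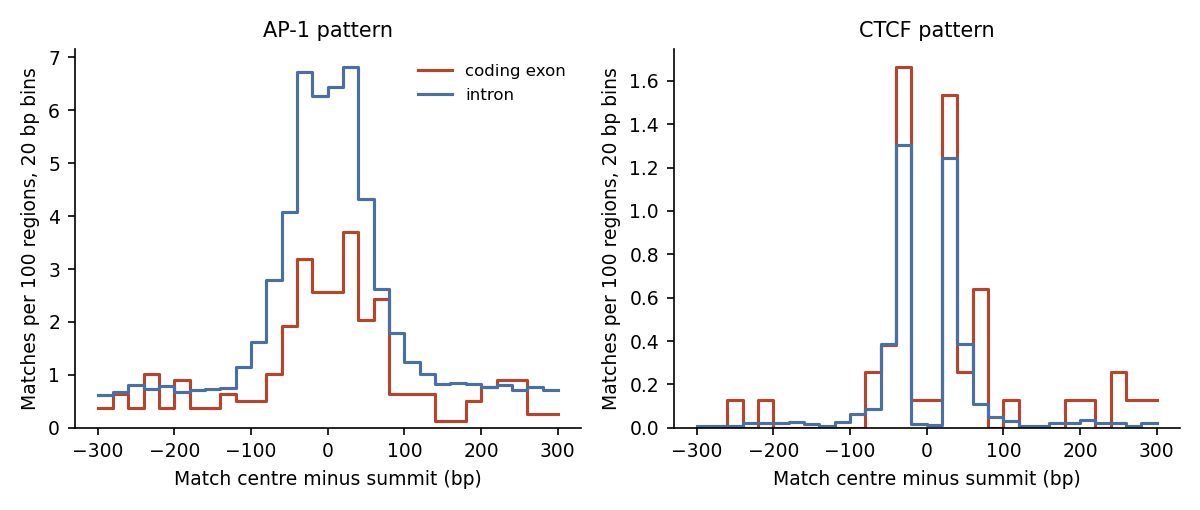
Pattern matches per 100 regions in 20 bp bins (vertical axis) against distance of the match centre from the strongest summit in bp, for coding-exon and intronic regions; counts are pooled over regions and have no error bars. AP-1 matches gather over the summit and reach lower heights in coding exons than in introns, whereas CTCF matches form 2 peaks at 20 to 40 bp on either side in both classes.

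Coding-exon regions were rich in G, C and CpG, the dinucleotide that is lost from methylated DNA over evolution and kept at CpG islands. Median GC within 50 bp of the summit was 56.4%, 57.4%, 57.4% and 57.4% in replicates 1 to 4, on average 9.65 ± 0.495 percentage points above introns (SD, n = 4). It was 50.5% in coding windows and 61.4% at promoters. The ratio of observed to expected CpG within 100 bp was 0.430 ± 0.0057 in coding exons, 0.187 in introns, 0.712 at promoters and 0.319 in coding windows. A ratio of 0.8 or more was found at 169 regions (21.6%) and in 2.53% of coding windows, 8.54 times as often.

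Splitting the regions at a CpG ratio of 0.6 gave 288 CpG-rich (36.8%) and 494 CpG-poor regions. They differed in width, in sequence and in place. CpG-rich regions had a median row width of 919.6 ± 47.0 bp and CpG-poor regions of 655.6 ± 15.3 bp, close to the 653.5 ± 21.5 bp of introns (SD, n = 4). The AP-1 pattern was found at 10 CpG-rich regions (3.47%) and at 93 CpG-poor regions (18.8%), whereas CTCF was found at 3.82% and 4.05%. Last coding exons held 141 of the CpG-rich regions (49.0%) and 106 of the CpG-poor ones (21.5%). Of the regions in last coding exons 57.1% were CpG-rich, against 21.4% in internal ones. The median percentile was 35.7 ± 1.49 in CpG-rich and 38.0 ± 1.25 in CpG-poor regions. A TSS of GENCODE lay within the merged region in 4.51% and 0.607% of them, and a RefSeq TSS within 1 kb of the summit in 9.72% and 3.04%.

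**Figure D5:**
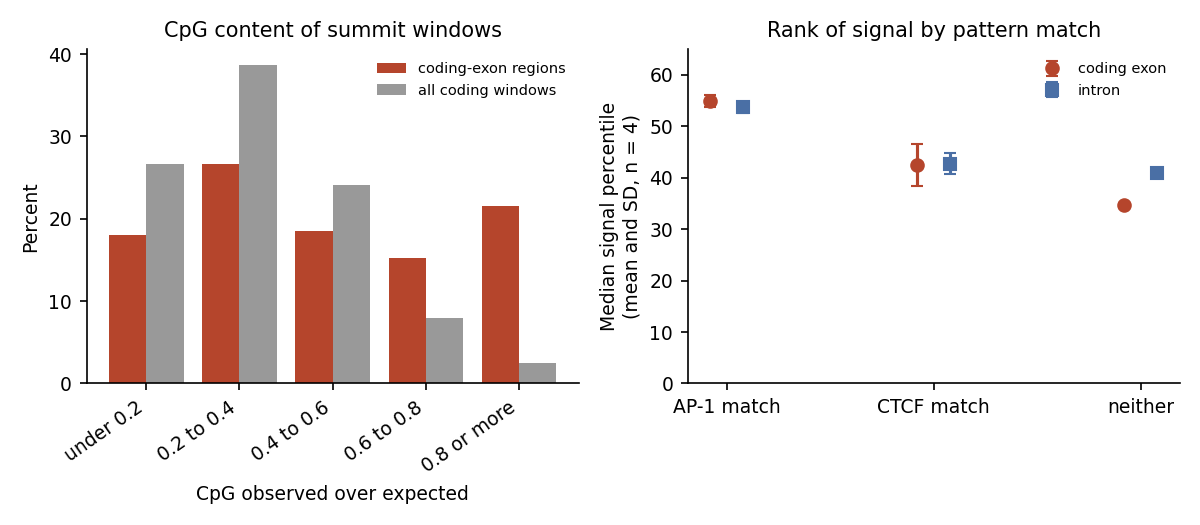
Left, percent of the 782 coding-exon regions and of all coding windows in each bin of observed over expected CpG. Right, median signal percentile of regions with an AP-1 match, a CTCF match or neither, in coding exons and introns, as mean and SD of 4 replicates; the classes lie together at 54.9 and 53.7 with an AP-1 match and apart at 34.6 and 41.0 with neither.

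The lists of genes of Th17 and other helper T cells held 2 of these regions in all. The 14 genes of a Th17 list had 1, where the density of all genes would give 0.362 in their 11.6 kb of eligible CDS. It lay in exon 5 of Ahr, the aryl hydrocarbon receptor that promotes interleukin 22 in Th17 cells. Its signal was 2.56, 2.33, 2.39 and 2.37, at a percentile of 1.73 ± 0.456, so it was among the weakest shared regions in every replicate. The 30 genes of other helper programmes also had 1, where that density would give 1.04. It lay in the last coding exon of Il12rb2, a chain of the interleukin 12 receptor of Th1 cells. Its signal was 6.43, 6.97, 6.24 and 6.22, at 42.0 ± 1.76 percentiles. The 43 genes of T-cell identity and receptor signalling had 0 and the 52 genes of activation and signalling had 0. At the density of all genes, their 53.3 and 55.3 kb of eligible CDS would hold 1.67 and 1.73 regions, so a count of 0 is within what so little sequence could show. The same genes of T-cell identity held 411 shared regions in their bodies, of which 337 were intronic.

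Regulators of chromatin carried more: 12 of 47 listed genes had 1 region each, where the density of all genes would give 6.57 in their 209.9 kb. Chd7, a remodelling ATPase, was the strongest, with 13.0, 13.0, 10.8 and 11.7 in exon 29. Arid1b, a subunit of the BAF remodelling complex, had 10.7, 9.93, 8.58 and 9.49 in exon 15, with an AP-1 match. Ino80, the ATPase of another remodeller, had 10.6, 9.17, 9.17 and 9.50. Tet2, an enzyme that oxidises methylated cytosine, had 7.17, 8.35, 10.2 and 9.77 in its last coding exon, and Tet1 had 6.48, 6.37, 4.97 and 5.52. The others included Chd1 at 52.4 ± 9.97 percentiles, Ncor1, Kmt2a, Kmt2c, Arid1a and, as the weakest, Kmt2b, a histone H3 lysine 4 methyltransferase, at 3.59 ± 2.59 (SD, n = 4). All 12 genes had an open promoter. These genes have long coding sequences, and no test of the list was made.

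The lists of other cell types had 1 region each, but differed in how much sequence they covered. The 26 genes of other blood cells have 21.8 kb of eligible CDS, which at the density of all genes would hold 0.681 regions. The 26 genes of tissues outside blood have 152.0 kb, which would hold 4.76. The first count was close to that density and the second below it, and no test of either list was made. Klf1, an erythroid factor whose promoter was called open in all 4 replicates, had 14.2, 14.4, 13.2 and 13.4 in exon 2, at 89.4 ± 0.460 percentiles. The Klf1 region was 1267 bp wide, with its summit 1288 bp from a TSS. Its own rows may be the ones that marked the promoter as open, which was not tested. Gata1, the other erythroid gene checked, had no row at its promoter. Apoa1, an apolipoprotein of liver and gut, had 9.96, 10.8, 9.49 and 11.7 in its last coding exon, with a CpG ratio of 0.838 and an NRF1 match.

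Among gene families, the 470 zinc finger genes with Zfp, Zscan or Zbtb symbols held 21 regions, where the density of all genes would give 23.8. The strongest was Zscan10, a factor of embryonic stem cells, with 13.8, 13.9, 14.1 and 13.2, and the weakest Zfp672 with 2.75, 2.57, 2.42 and 2.41. Kinesin and myosin heavy chain genes held 10 (8.99 at the overall density), from Myo15b at 84.3 ± 3.90 percentiles to Kif5a, a neuronal kinesin, at 9.00 ± 2.13. Solute carriers held 5 (14.1), from Slc47a1 at 90.7 ± 2.82 to Slc22a18 at 6.59 ± 0.935. Predicted gene models with Gm symbols held 6 (19.99), between Gm4952 at 86.7 ± 0.821 and Gm17949 at 2.53 ± 2.03. Collagen genes held 0 (5.49), protocadherins 0 (3.16) and olfactory receptors 0 (3.34). The only region in a histocompatibility gene was in exon 2 of H2-Ab1, which encodes a class II chain, with 3.18, 4.05, 3.82 and 3.67.

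No gene held more than 2 coding-exon regions. In Lrba, which acts in the recycling of CTLA4, exon 23 had 16.8, 17.2, 13.7 and 16.2 and exon 45 had 11.8, 12.2, 11.1 and 11.5, with an AP-1 match at the second. Map4, a microtubule-associated protein, had an AP-1 match at both of its regions, with 13.98, 14.1, 12.01 and 11.98 at the stronger and 7.35, 7.13, 5.61 and 7.50 at the weaker. Smg1, a kinase of nonsense-mediated decay, had 11.9, 13.6, 9.23 and 13.0 in exon 40 and 6.19, 6.67, 9.44 and 6.80 in exon 19. In Lyst, the lysosomal trafficking regulator, the 2 regions were near equal, at 59.9 ± 1.94 and 56.4 ± 0.622 percentiles. Gne, an enzyme of sialic acid synthesis, had 83.2 ± 2.56 and 72.9 ± 3.70, Zan had 85.0 ± 2.73 and 76.3 ± 9.10, Hmcn2 had 62.2 ± 2.59 and 57.8 ± 9.00, and Hspg2 had 88.8 ± 3.52 and 39.2 ± 23.0 (SD, n = 4).

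The longest coding exon with a region, 11544 bp in exon 4 of the mucin gene Muc16, held 2. Their signals were 5.19, 5.61, 4.08 and 4.11 at one and 6.48, 7.73, 5.61 and 5.80 at the other. The promoter of Muc16 was not open in all 4 replicates, and one of its regions lay within 1 kb of a RefSeq TSS. The next longest was an exon of 7035 bp in Tex15, a gene of male meiosis, with 7.59, 9.01, 6.63 and 6.28.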

How the data were processed

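ATAC-seq peak lists of 4 Th17 replicates, 1 list per replicate, were analysed. Per the labels they are on mm10. Which aligner and caller made them is not given in the sources used here. The deposited lists give, per peak, a signal (enrichment by the authors' peak caller, not normalised between replicates), −log10 p and −log10 q values, a display score that was not used, and a summit offset. Depth is unknown for want of counts, and intervals that need it were not computed. Regions were merged, ranked within replicate and classed by summit with GENCODE M21 on GRCm38.p6, promoters first, then CDS, UTR exons, non-coding exons, introns and intergenic sequence. Patterns were searched on both strands. Classes were compared by differences within each replicate, with exact sign-flip permutation tests. Outlying replicates were sought with Dixon's critical value, and shares under other settings were set against a 95% binomial interval. Python 3.11.15, pandas 2.3.3, numpy 2.4.6 and pysam 0.24.0 were used, and the code was tested on simulated data. The regions, gene lists, patterns and tests were chosen with earlier results of these data known. Genes named are the 10 strongest and 5 weakest regions, 3 on each side of the TSS limit, 8 genes with 2 regions, every region in the T-cell lists, the strongest and weakest of other lists and families, the 5 strongest with AP-1 and with CTCF, the 3 regions in the longest exons and the 3 most variable. Other chromatin regulators were named after their values were seen. Some items are not reported here. All 238 listed genes matched the annotation by symbol.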

Additional observations from a re-analysis of the deposited data

Results flagged for a closer look

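In 80 groups of 4 replicate values tested for an outlying replicate, 6 had one whose gap to the nearest other value exceeded Dixon's 95% critical share of the range; chance alone flags about 1 in 20 such groups. Replicate 3 had the highest share of rows in coding exons, 1.31% against 1.27% in each of the other 3 replicates, and the highest ETS ratio at coding-exon summits, 3.67 against 2.59 to 2.74. Replicate 1 had the lowest median GC at coding-exon summits, 56.4% against 57.4%. Single regions with an outlying replicate were Gne exon 7, with a signal of 12.06 in replicate 1 and 12.5 to 12.6 in the others, Gne exon 3, with 11.9 in replicate 2 and 9.96 to 10.2 in the others, and Kif5a, with 3.09 in replicate 1 and 3.45 to 3.496 in the others.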

How the results depend on the processing

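Of 161 values recomputed under other settings, 115 kept their direction (for the 2 tested differences) or moved by less than the replicate SD, the 95% binomial interval or a factor of 1.5, 42 moved by more and 4 reversed. The mean differences in signal percentile and in width from introns kept their sign under each of 15 settings, from -8.61 to -1.57 percentiles and from 46.5 to 93.3 bp; at -1.57, with every summit in the class, 1 of 4 replicates had the other sign (exact sign-flip permutation p = 0.25). The number of regions was 397 with the strongest 50000 rows of each replicate. The share of shared regions was 0.993% with the 4 summits within 100 bp, 1.01% with -log10 q of at least 10, 0.831% with every summit in the class, 0.917% with the strongest rows, 1.40% with a TSS limit of 500 bp and 0.911% with 2 kb. The density ratio to introns, in that order, was 0.931, 1.01, 0.802, 0.964, 1.17 and 1.08, so it reversed in 3 of them; it was 1.13 with rows of at least 3 replicates, 1.12 with the strongest row by -log10 q and 1.13 with TSS of protein-coding genes only. The share in long exons was 17.2% with summits within 100 bp, 24.5% with every summit in the class, and 35.9% and 8.70% with limits of 500 and 2000 bp. The share with an open promoter was 84.7% when 1 replicate sufficed and 82.5% with the 500 bp limit. With summits within 100 bp, -log10 q of at least 10, every summit in the class and the strongest rows, the AP-1 ratio was 6.39, 6.42, 6.54 and 6.29, the CTCF ratio 43.3, 18.8, 30.7 and 23.4 and the GC difference 8.42, 8.91, 10.9 and 8.91 percentage points; the GC difference was 10.9 and 8.91 with TSS limits of 500 bp and 2 kb. With windows of 100 bp on each side, flanks 400 bp away and flanks in CDS, the AP-1 ratio was 3.52, 5.18 and 8.59. The CTCF ratio was 8.96 and 37.3 under the first 2 of these, reversed to 0.65 with 25 bp windows, and had no value with flanks in CDS, where replicate 1 had 0 matches. Adding RefSeq TSS, a setting chosen after the data were seen, gave a CTCF ratio of 18.2 and 739 regions. Leaving out each replicate gave a density ratio of 1.11 to 1.13, an AP-1 ratio of 4.53 to 5.28 and a CTCF ratio of 11.1 to 16.9. Causes of these shifts were not tested, except that the 25 bp window leaves out the distance at which CTCF matches lie. No paired analysis of groups was possible because the series has 1 group; classes of regions were compared within each replicate. Unknown depth limits what the weak regions can show, and the lists stop at the authors' threshold.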

Other observations

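Other factor patterns gave smaller or rarer signals at coding-exon summits. RUNX (TGTGGTT) was found within 50 bp of the strongest summit at 31 of 782 regions (3.96%), 6.33% of intronic regions, 5.16% of all shared regions and 1.66% of coding windows, and its ratio over the flanks was 2.43 ± 0.737 (SD, n = 4) against 2.26 ± 0.042 in introns. ETS was found at 22 regions (2.81%) and 1.23% of coding windows, with a ratio of 2.91 ± 0.505 against 2.86 ± 0.106 in introns. The NF-kB ratio was 1.12 ± 0.178, where introns had 2.18 ± 0.061. The composite of AP-1 with an IRF site, bound in Th17 cells by BATF with IRF4, was found at 0 of 782 coding-exon regions. It was found at 0.508% of intronic regions and 0.0218% of coding windows. Taking a count of 0 to allow up to 3 gives a share of up to 0.384%. That limit treats regions as independent, which they need not be, and the difference from introns was not tested.

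NRF1 (GCATGCGC), a pattern of CpG-rich promoters, was found at 9 coding-exon regions (1.15%), 0.139% of intronic regions, 0.520% of all shared regions and 0.152% of coding windows. Its ratio over the flanks was 3.70 ± 0.503 in coding exons and 0.891 ± 0.022 in introns. Other patterns with a raised ratio at promoters did not share this. KLF/SP, NFY and YY1 had 1.99, 4.41 and 1.98 at promoters. In coding exons they had 1.03 ± 0.184, 1.13 ± 0.094 and 1.04 ± 0.508. KLF/SP was found at 1.28% of coding-exon regions and 0.282% of coding windows. NFY was found at 0.767% and 1.22% of these, and YY1 at 0.384% and 0.755%. EGR (GCGTGGGCG) was found at 5 regions (0.639%), 0.031% of intronic regions and 0.037% of coding windows. The E-box CAGCTG was frequent in coding sequence at large, at 8.39% of coding windows, and was found at 80 coding-exon regions (10.2%) and 6.31% of intronic ones. Its ratio over the flanks was 1.37 ± 0.047 in coding exons and 1.22 ± 0.013 in introns. The pattern of HNF4, a liver factor used as a control, was found at 1 region, with a ratio of 0.625 ± 0.479.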
